A study of Mus musculus with 9 samples.

Results

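Targets of the transcription factor SRF and of the coactivators YAP and TAZ were followed in 35 named genes that encode contractile, cytoskeletal, adhesion and secreted proteins. The genes were taken from a fixed list by the symbol of the platform annotation, with 1 probe set for each gene, the one with the highest mean over the 9 arrays. All 35 had a probe set, out of 18193 genes on the arrays. The cells were NIH-CAR cells, a clonal line of NIH-3T3 mouse fibroblasts at passage 12 that stably carries the adenovirus receptor CARΔ1. In the first group they received adenovirus for full-length HA-tagged PPARg2 and then 1 μM rosiglitazone (full-length). In the second they received adenovirus for HA-PPARgCDE, the receptor without its A/B-domain, and the same agonist (A/B-deleted). In the third they received AdEmpty, the virus with no insert, and then DMSO (empty vector). Transduction lasted 2 h in all of them, and each group has 3 arrays. Receptor and agonist were always given together, so neither can be read alone, and all cells came from 1 clone.

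SRF binds CArG boxes and drives genes of the contractile apparatus when its cofactors of the MRTF family, released from monomeric actin, enter the nucleus. YAP (Yap1) and TAZ (Wwtr1) bind TEAD factors and switch on secreted and signalling genes such as Ccn1, Ccn2 and Ankrd1 until the Hippo kinases, among them LATS2, phosphorylate them. Both pathways respond to actin tension, share several targets, and are active in spread fibroblasts in culture. PPARγ is the nuclear receptor that directs fat cell formation, and in preadipocytes the loss of stress fibres accompanies that process.

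The regulatory letters of both pathways can be read upstream of some of these genes. The promoters of 5 members that hold such letters are shown. RefSeq's table for GRCm38.p6 held a start site for 30 of the 35 genes, and none for Actg2, Ccn2, Tagln, Tead1 and Thbs1. The window searched ran from 250 bases before to 50 bases after the start, on both strands. The CArG box was found in 5 of the 30 (16.7%, Cnn2, Fhl2, Myl9, Srf and Vcl), against 1.81% of all 27025 genes in the table. The TEAD hexamer CATTCC, or GGAATG when read on the other strand, was found in 16 of the 30 (53.3%), against 16.6% of all genes. Zyx and Cnn3 held neither motif. No match of one motif overlapped one of the other in these genes. The 250 bases before the start follow, 5′ to 3′ on the strand of the gene, with matches to either motif in capitals. They are Ankrd1 (chr19:36119845-36120094, minus strand, 2 TEAD hexamers), Ccn1 (chr3:145649986-145650235, minus strand, 1 TEAD hexamer) and Myl9 (chr2:156775214-156775463, plus strand, 1 CArG box). Also shown are Srf (chr17:46556163-46556412, minus strand, 2 CArG boxes) and Vcl (chr14:20929148-20929397, plus strand, 1 of each).
Ankrd1: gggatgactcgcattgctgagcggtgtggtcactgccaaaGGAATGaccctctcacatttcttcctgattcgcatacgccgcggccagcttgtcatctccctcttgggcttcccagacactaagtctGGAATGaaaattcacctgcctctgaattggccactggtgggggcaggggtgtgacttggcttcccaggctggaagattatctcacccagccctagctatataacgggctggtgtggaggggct
Ccn1: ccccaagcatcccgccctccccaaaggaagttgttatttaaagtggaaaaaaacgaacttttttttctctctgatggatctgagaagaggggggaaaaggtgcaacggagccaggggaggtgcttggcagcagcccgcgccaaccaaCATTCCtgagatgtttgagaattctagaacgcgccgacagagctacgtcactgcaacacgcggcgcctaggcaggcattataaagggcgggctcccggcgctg
Myl9: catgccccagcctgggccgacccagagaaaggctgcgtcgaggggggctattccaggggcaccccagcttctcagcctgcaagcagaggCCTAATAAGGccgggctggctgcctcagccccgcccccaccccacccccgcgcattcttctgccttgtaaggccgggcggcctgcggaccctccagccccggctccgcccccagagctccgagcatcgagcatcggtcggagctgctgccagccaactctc
Srf: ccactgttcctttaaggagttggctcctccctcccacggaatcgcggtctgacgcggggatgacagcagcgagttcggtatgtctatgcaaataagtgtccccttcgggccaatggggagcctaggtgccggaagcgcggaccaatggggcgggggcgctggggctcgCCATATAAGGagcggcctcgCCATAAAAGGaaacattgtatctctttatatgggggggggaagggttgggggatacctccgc
Vcl: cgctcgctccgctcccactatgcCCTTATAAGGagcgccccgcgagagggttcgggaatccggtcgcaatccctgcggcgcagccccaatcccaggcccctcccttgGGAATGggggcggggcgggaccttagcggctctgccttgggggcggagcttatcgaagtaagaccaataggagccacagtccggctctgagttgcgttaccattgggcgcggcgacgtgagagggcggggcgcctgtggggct

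The arrays are described by a few facts that touch the results. Pparg averaged 11.25 ± 0.84 with the full-length receptor, 11.34 ± 0.63 with the A/B-deleted receptor and 7.06 ± 0.10 with empty vector (log2 levels, SD, n = 3 each). All levels and differences below are log2 values, in which 1 unit is a factor of 2, and limma's adjusted p-values are over all 18193 genes, called under 0.05. Unless a block of the array number is named, calls come from the fit without it. The design text speaks of individual experiments without tying arrays to them, so a p-value here reflects how far the arrays of a group lie apart in 1 clone. The 3 arrays numbered 3 stood apart. Their level for 18S ribosomal RNA was 7.59, 8.06 and 8.67 in full-length, A/B-deleted and empty-vector cells, whereas the other 6 arrays lay between 10.51 and 12.44. The 3′ minus 5′ difference of the Actb control probe sets, a sign of RNA quality, ran from 0.20 to 0.26 over all 9 arrays. The 10 fibroblast markers, Col1a1, Vim and Pdgfrb among them, lay above the median of all genes on every array. Of 8 genes of mature smooth muscle, Smtn did so and 5 lay below it on every array, Myocd and Myh11 among them; Cnn1 and Lmod1 are in this list and among the 35. Of 10 skeletal and cardiac muscle genes, 0 lay above it on every array and 9 lay below it on every array. RNA of whole cultures was measured, so fewer cells that use a gene and less of its RNA in each cell cannot be told apart.

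Among the secreted and signalling targets Ankrd1 fell with the full-length receptor. Ccn2 had a larger difference from empty vector, but with a wider spread and no call. Ankrd1 encodes an ankyrin repeat cofactor that is induced by YAP and by mechanical load. It read 7.89, 7.52 and 7.88 in full-length cells, 8.32, 7.70 and 8.63 in A/B-deleted cells, and 9.43, 9.68 and 10.09 in empty-vector cells. Every array with a receptor lay below every empty-vector array, and the 2 receptor groups overlapped. The difference of full-length from empty vector was -1.97 (SE 0.25, limma adjusted p = 0.00813), a level 3.93-fold lower. Ankrd1 was called in that comparison under all 17 alternative settings, with adjusted p from 0.00407 to 0.0445. It was also the 1 member called by limma's F test over the 3 groups (adjusted p = 0.0206), a test that called 0.418% of all genes. That F call was lost without any 1 of full-length arrays 1 and 2 (0.0644 and 0.0823), A/B-deleted array 1 (0.0543) or empty-vector arrays 1, 2 and 3 (0.0621, 0.128 and 0.0805).

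Ccn2, also known as Ctgf, and Ccn1, also known as Cyr61, are paired in textbooks as secreted matricellular proteins and YAP targets. Ccn2 read 10.25, 9.20 and 10.50 in full-length cells, 11.16, 10.05 and 11.79 in A/B-deleted cells, and 12.37, 11.99 and 12.84 in empty-vector cells. All receptor arrays lay below all empty-vector arrays. The difference of full-length from empty vector was -2.42, the lowest of the 35, but its SE of 0.46 left it uncalled (limma adjusted p = 0.062). With the array number as a block it was called (limma adjusted p = 0.00246), though these arrays were not taken as pairs. Without A/B-deleted array 2 or 3, which enter only the shared estimate of the spread, it was called (adjusted p = 0.0298 and 0.0445). Ccn1 lay on the other side. It read 12.34, 12.21 and 12.46 in full-length cells, 12.30, 12.11 and 12.38 in A/B-deleted cells, and 11.84, 12.05 and 11.83 in empty-vector cells. All receptor arrays lay above all empty-vector arrays, by 0.43 for full-length (95% interval 0.15 to 0.71, limma adjusted p = 0.295), which was not called. Over the 4 probe sets of Ccn1 that difference ran from 0.43 to 0.90, all above 0.

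Thbs1 encodes thrombospondin, a matrix protein that can activate latent TGF-β. It read 11.66, 10.66 and 9.47 in full-length cells, 12.12, 11.09 and 10.36 in A/B-deleted cells, and 12.77, 12.33 and 11.22 in empty-vector cells. At each array number the full-length value was lowest and the empty-vector value highest, but the groups overlapped because the arrays numbered 3 were low in all of them. The full-length difference was -1.51 (95% interval -2.90 to -0.12, limma adjusted p = 0.706) and was not called. Tgfb2, a TGF-β ligand, had the highest difference of the 35. It read 8.61, 8.19 and 6.97 in full-length cells, 7.98, 7.89 and 6.43 in A/B-deleted cells, and 6.98, 6.39 and 5.90 in empty-vector cells. The groups overlapped through the low arrays numbered 3, and the full-length difference of 1.50 (95% interval 0.35 to 2.65, limma adjusted p = 0.476) was not called. Without the 3 arrays numbered 3 it was 1.72 and was called (adjusted p = 0.0233). The 4 probe sets of Tgfb2 gave differences from 0.42 to 1.50.

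Fhl2 encodes a LIM-domain cofactor of SRF that is itself an SRF target. It read 9.56, 9.34 and 9.74 in full-length cells, 9.78, 9.66 and 9.95 in A/B-deleted cells, and 10.10, 10.19 and 10.53 in empty-vector cells. The receptor arrays lay below all empty-vector arrays, and the full-length difference was -0.73 (SE 0.16, limma adjusted p = 0.0997), not called. Axl, a receptor tyrosine kinase, read 11.33, 11.09 and 12.16 in full-length cells, 11.55, 11.39 and 12.46 in A/B-deleted cells, and 11.87, 11.92 and 12.63 in empty-vector cells. Its arrays numbered 3 were the highest of each group, and the groups overlapped. The full-length difference of -0.61 had a 95% interval from -1.41 to 0.19 and was not called.

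**Figure D1:**
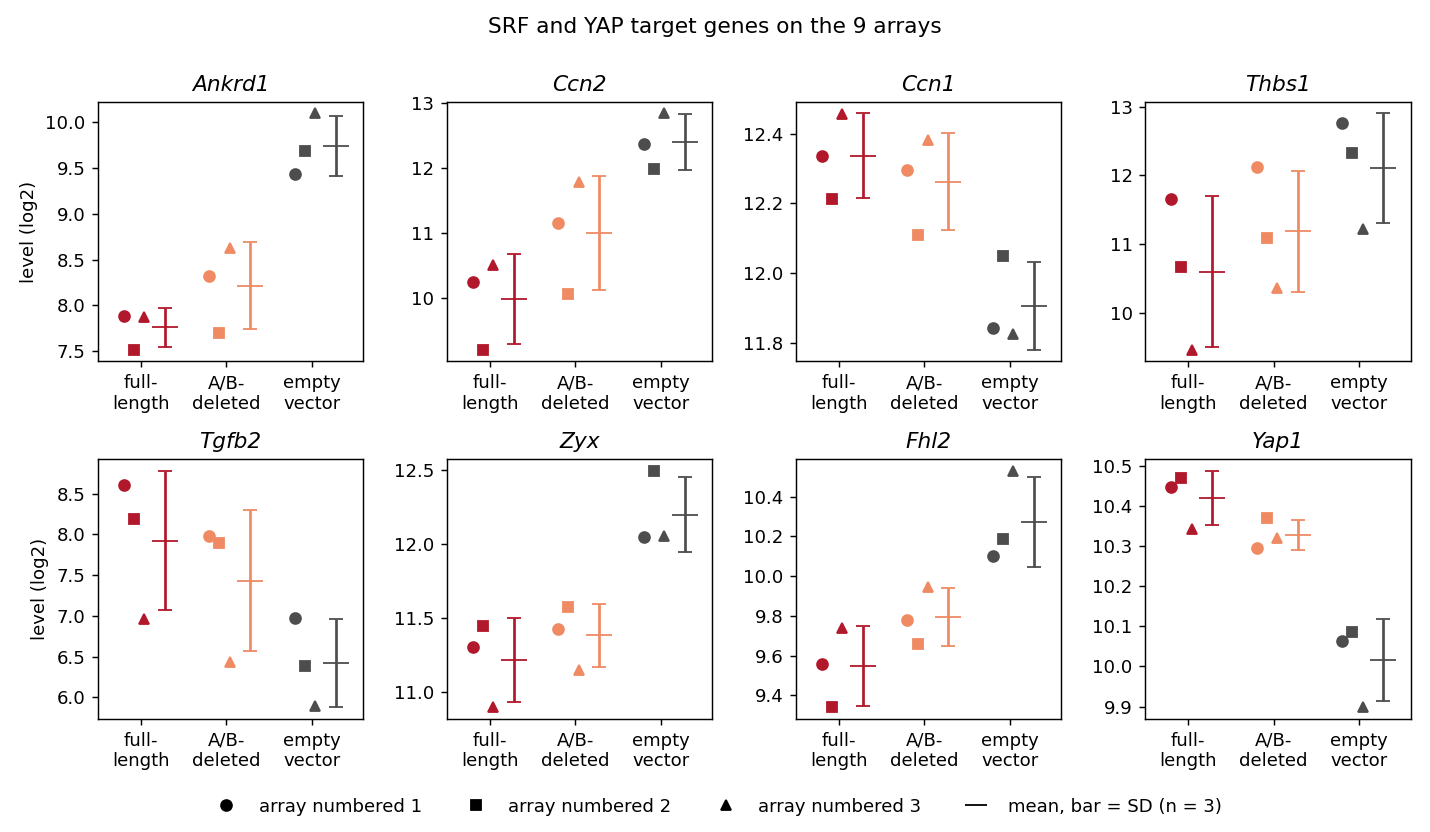
Levels (log2) of 8 genes on each of the 9 arrays, by group, with the array number as the marker and the mean ± SD (n = 3) beside the points. Each panel has its own vertical scale. Ankrd1, Ccn2, Zyx and Fhl2 lie lower on every receptor array than on every empty-vector array, Ccn1 and Yap1 lie higher, and Thbs1 and Tgfb2 overlap between groups.

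None of the 7 upstream factors was called, while for Yap1, Tead1 and Lats2 the full-length and empty-vector arrays did not overlap. Srf read 8.87, 8.99 and 9.06 in full-length cells, 8.91, 9.07 and 9.23 in A/B-deleted cells, and 8.80, 9.13 and 9.18 in empty-vector cells. The groups overlapped, and the full-length difference was -0.06 with a 95% interval from -0.37 to 0.25. Yap1 read 10.45, 10.47 and 10.34 in full-length cells, 10.30, 10.37 and 10.32 in A/B-deleted cells, and 10.06, 10.09 and 9.90 in empty-vector cells. All receptor arrays lay above all empty-vector arrays, by 0.40 for full-length (95% interval 0.17 to 0.64, limma adjusted p = 0.2), not called. Wwtr1, the gene of TAZ, read 10.81, 10.99 and 10.74 in full-length cells, 10.75, 10.78 and 10.70 in A/B-deleted cells, and 10.66, 10.58 and 10.81 in empty-vector cells. These ranges overlapped, with a full-length difference of 0.17 (95% interval -0.09 to 0.42).

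Tead1, the DNA-binding partner of YAP and TAZ, read 9.81, 9.81 and 9.31 in full-length cells, 9.69, 9.89 and 9.53 in A/B-deleted cells, and 9.91, 10.39 and 9.95 in empty-vector cells. Its receptor arrays all lay below the empty-vector arrays, and the full-length difference was -0.44 (95% interval -0.86 to -0.02, limma adjusted p = 0.741), not called. Lats2, a Hippo kinase that YAP itself induces, differed by -0.53 (95% interval -0.97 to -0.08) with no overlap of full-length and empty-vector arrays. Its 6 probe sets gave differences from -0.59 to 0.29 and so did not share a sign. The 0.29 came from a dim probe set with a mean level of 6.88. The others all lay below 0, among them dimmer probe sets at 6.16 and 5.70. The angiomotin-like scaffolds Amotl1 and Amotl2, which bind YAP, differed by -0.18 and -0.03, and both overlapped between groups.

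The 12 genes of the contractile filament itself had full-length differences from empty vector between -0.47 and 0.26, with a median of -0.13. For A/B-deleted against empty vector they ran from -0.35 to 0.04, and for A/B-deleted against full-length from -0.22 to 0.13. Acta2 encodes smooth muscle α-actin, the marker of myofibroblasts. It read 13.73, 13.92 and 12.82 in full-length cells, 13.72, 13.93 and 12.81 in A/B-deleted cells, and 13.75, 13.95 and 12.99 in empty-vector cells. Equal-numbered arrays differed by at most 0.18 between groups, while arrays 2 and 3 of a group lay about 1 unit apart. The full-length difference was -0.07 with a 95% interval from -0.93 to 0.78. Actg2, smooth muscle γ-actin, and Tagln, the actin-bundling transgelin SM22, differed by -0.47 (95% interval -2.77 to 1.83) and -0.23 (95% interval -1.54 to 1.08). The widths of these intervals come from the arrays numbered 3, which read 5.93, 6.32 and 6.54 for Actg2 in full-length, A/B-deleted and empty-vector cells and 8.33 or more on the others.

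Calponins damp the actomyosin ATPase and are encoded by 3 of these genes. Cnn3, the non-muscle form, read 12.69, 12.54 and 12.32 in full-length cells, 12.75, 12.75 and 12.44 in A/B-deleted cells, and 12.97, 12.99 and 12.78 in empty-vector cells. All receptor arrays lay below all empty-vector arrays, by -0.40 for full-length (95% interval -0.71 to -0.08, limma adjusted p = 0.52), not called, and its 6 probe sets gave differences from -0.67 to -0.40. Cnn2 differed by -0.31 and Cnn1, the smooth muscle form, by 0.01, each with overlap. The tropomyosins, which lie along the actin filament, differed by -0.13 for Tpm1, 0.11 for Tpm2 and -0.20 for Tpm4. Caldesmon (Cald1), which binds actin and tropomyosin, differed by -0.13, Tagln2 by 0.26 and Lmod1, a smooth muscle actin nucleator, by 0.02. Lmod1 was no higher than 6.43 on any array, below the lowest array median over all probe sets of 6.68. Without a block, none of these 12 filament genes was called in any of the 3 comparisons.

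Of the 3 myosin genes, Myl9, a regulatory light chain, varied most between arrays. It read 9.61, 10.24 and 6.85 in full-length cells, 9.90, 10.49 and 6.91 in A/B-deleted cells, and 9.97, 10.92 and 7.17 in empty-vector cells. Array 3 minus the mean of the other arrays was -3.08 in full-length, -3.28 in A/B-deleted and -3.27 in empty-vector cells, and the full-length difference was -0.45 (95% interval -3.24 to 2.33). Myh9 and Myh10, the heavy chains of non-muscle myosin IIA and IIB, differed by -0.12 and -0.38, both uncalled.

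Among crosslinkers and adhesion proteins Zyx stood out. It encodes zyxin, a LIM protein that moves to stress fibres under load. It read 11.30, 11.44 and 10.89 in full-length cells, 11.42, 11.57 and 11.15 in A/B-deleted cells, and 12.04, 12.49 and 12.06 in empty-vector cells. All 6 receptor arrays lay below the 3 empty-vector arrays, by -0.98 for full-length (SE 0.19, limma adjusted p = 0.0634), not called, and both probe sets gave values from -1.07 to -0.98. Csrp1, a LIM protein that binds zyxin and α-actinin, read 9.42, 10.14 and 8.48 in full-length cells, 9.56, 10.30 and 8.55 in A/B-deleted cells, and 9.73, 10.94 and 9.09 in empty-vector cells. Those groups overlapped, and the difference of -0.58 had a 95% interval from -1.89 to 0.74. Vinculin (Vcl), filamin A (Flna) and the α-actinins Actn1 and Actn4 differed by -0.29, -0.11, -0.10 and 0.04, with 95% intervals that all included 0.

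**Figure D2:**
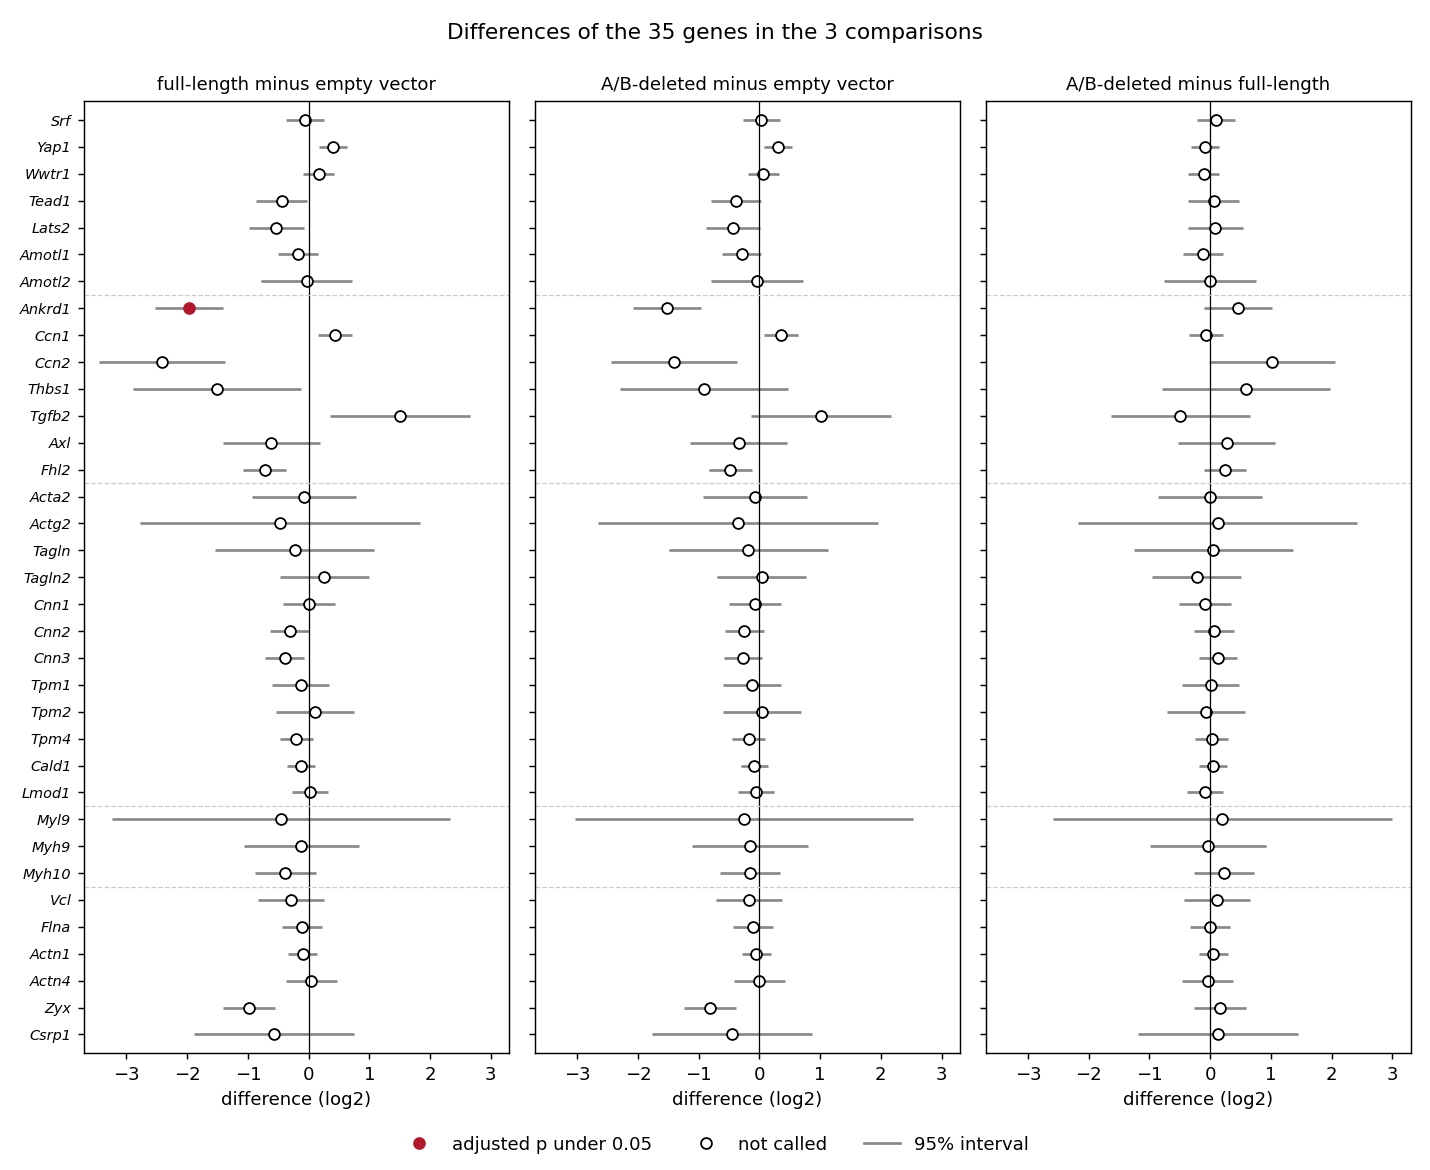
Differences (log2) of the 35 genes with 95% intervals from limma, in the 3 comparisons, ordered by role with dashed lines between roles. The filled point is Ankrd1 at -1.97, the 1 call, and in the right panel every interval includes 0.

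Across the 35 genes, the comparison of full-length receptor with empty vector called 1 lower and 0 higher. In all genes 0.154% were called lower and 0.5% higher. At an unadjusted p under 0.05, 8 members were lower and 3 higher (22.9% and 8.57%), against 3.16% and 3.04% of all genes. Groups without overlap were seen for 7 members lower, Ankrd1, Ccn2, Cnn3, Fhl2, Lats2, Tead1 and Zyx, and for 2 higher, Ccn1 and Yap1. That is 20% and 5.71% of the members, against 4.86% and 4.52% of all genes. With arrays 1 and 2 alone, 15 members (42.9%) were lower without overlap, against 29.8% of all genes. The median difference of the members was -0.18, against 0.00 over all genes, and 26 members lay below 0 (74.3%, against 49.1% of all genes). Equal array numbers were not taken as pairs in this comparison, since full-length and empty-vector arrays numbered 1 did not deviate together. The number of calls depends on that choice, and the other comparisons, taken as pairs, use the same arrays. With the number as a block, 8 members were called lower (22.9%, against 1.74% of all genes). They were Ankrd1, Axl, Ccn2, Cnn3, Csrp1, Fhl2, Thbs1 and Zyx. Tgfb2 and Yap1 were called higher (5.71%, against 1.89% of all genes). By role, the medians were -0.73 for the 7 secreted and signalling targets and cofactors, -0.38 for the 3 myosins and -0.20 for the 6 crosslinkers and adhesion proteins. They were -0.13 for the 12 filament genes and -0.06 for the 7 upstream factors.

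The A/B-deleted receptor gave differences from empty vector of the same sign in most of these genes. The comparison shares its empty-vector arrays with the one above, so the likeness of the values is not independent. Limma called 0 of the 35 genes, against 0.159% of all genes higher and 0.011% lower. At an unadjusted p under 0.05, 4 members were lower (Ankrd1, Ccn2, Fhl2 and Zyx) and 2 higher (Ccn1 and Yap1), or 11.4% and 5.71%, against 1.57% and 2.22% of all genes. Groups did not overlap for 7 members lower (20%) and 2 higher (5.71%), against 4.03% and 3.86% of all genes.

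Equal array numbers were taken as pairs here, although no label states it. The choice was made from these same values, as the deviations of same-numbered arrays correlated across genes in all 3 pairs. With the number as a block, Ankrd1, Ccn2 and Zyx were called lower and 0 members higher. Of all genes, 0.253% were called lower and 0.66% higher. That fit took in the arrays of all 3 groups, so full-length arrays share its number effects and its spread. Their numbers were not taken as pairs with those of empty vector. The calls with the block therefore do not rest on A/B-deleted and empty-vector pairs alone. Ankrd1 had differences of -1.11, -1.99 and -1.46 in the pairs numbered 1, 2 and 3. The mean was -1.52 (adjusted p = 0.0697 without and 0.024 with the block in limma). Ccn2 had pair differences of -1.22, -1.94 and -1.06 with a mean of -1.40 (limma adjusted p = 0.876 without and 0.0276 with the block). Zyx had pair differences of -0.62, -0.92 and -0.91 with a mean of -0.82 (limma adjusted p = 0.319 without and 0.0247 with the block). The other members were not called with the block, Thbs1 (-0.92, limma adjusted p = 0.0685), Tgfb2 (1.01, 0.0788) and Fhl2 (-0.48, 0.0795) among them.

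In sign alone, 24 of the 35 members (68.6%) were lower in all 3 A/B-deleted and empty-vector pairs and 3 (8.57%) were higher in all. Over all genes the shares were 19% and 14.8%. With the pairs numbered 1 and 2 alone, 26 members (74.3%) were lower in both, against 46.5% of all genes. Many of these steps were small. The pair differences of Acta2 were -0.03, -0.02 and -0.18, those of Vcl -0.17, -0.15 and -0.21, and those of Tpm4 -0.18, -0.15 and -0.20. The median difference of the 35 genes was -0.16, against -0.03 over all genes.

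The last comparison set the A/B-deleted receptor against the full-length receptor, the question that the title of the study poses for single genes. Limma called 0 members in either direction, and 0% of all genes, with and without the number as a block. At an unadjusted p under 0.05 it gave 0 members higher and 0 lower, against 0.544% and 0.978% of all genes. No member was without overlap, against 2.02% of all genes higher and 3.14% lower. Ccn2 had the largest difference. It read 11.16, 10.05 and 11.79 in A/B-deleted cells, against 10.25, 9.20 and 10.50 in full-length cells. This is a difference of 1.02 (95% interval -0.02 to 2.05, limma adjusted p = 1.00 without and 0.447 with the block). The A/B-deleted array was higher by 0.91, 0.86 and 1.28 in the 3 pairs.

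Ankrd1 was higher with the A/B-deleted receptor than with the full-length one by 0.43, 0.18 and 0.75 in the pairs, with a mean of 0.45 (95% interval -0.11 to 1.01). Thbs1 differed by 0.59 (95% interval -0.79 to 1.98) and Tgfb2 by -0.49 (95% interval -1.64 to 0.66). These intervals reach past 1 unit in at least 1 direction, so equal levels are not shown. Those of the steadier genes were narrower, from -0.35 to 0.20 for Ccn1, from -0.32 to 0.14 for Yap1 and from -0.19 to 0.29 for Actn1. In sign, 15 members (42.9%) were higher with the A/B-deleted receptor in all 3 pairs, against 13.6% of all genes, and 8 (22.9%) were lower in all, against 12.4%. With the pairs numbered 1 and 2 alone 16 members were higher in both (45.7%), against 21.6% of all genes. The median difference was 0.05 over the members and -0.01 over all genes.

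Much of the variation of these genes followed the array number and not the group. The sum of squares over the 9 arrays was divided into a part between groups, a part between array numbers and a rest, a description chosen after the values were seen. For the members the array number held a median of 57.9%, the group 25.4% and the rest 3.4%. Over all genes the medians were 32.3%, 14.1% and 38.5% in the same order, so there the rest was the largest. The number held more than the group in 22 members (62.9%), against 65.5% of all genes. The roles differed in value. The number held medians of 93.6% in the myosins, 83.6% in the crosslinkers and adhesion proteins and 71.6% in the filament genes. It held 38.9% in the upstream factors and 22.2% in the secreted and signalling targets and cofactors, where the group held 75.5%.

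The number held 98.9% for Acta2, 98.3% for Myl9, 97.7% for Tagln and 96.6% for Actg2. The group held 89.4% for Ankrd1, 89.0% for Yap1, 81.2% for Zyx and 78.5% for Fhl2. In 5 members, Actg2, Csrp1, Myl9, Tagln and Thbs1, array 3 lay more than 1 unit below the mean of the other arrays of its group in all 3 groups (14.3%, against 0.698% of all genes). Ccn2, Axl and Tagln2 went the other way, with arrays numbered 3 higher by 0.88, 0.89 and 0.55 over all groups. The low 18S signal moved with the same arrays, and its part in this pattern was not tested. With the arrays numbered 1 and 2 alone, the number held a median of 33.7% in the members and 14.95% over all genes, and the group 54.9% and 42.9%. Fewer array numbers but as many groups went into these shares, so they cannot be set directly against those over all arrays.

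**Figure D3:**
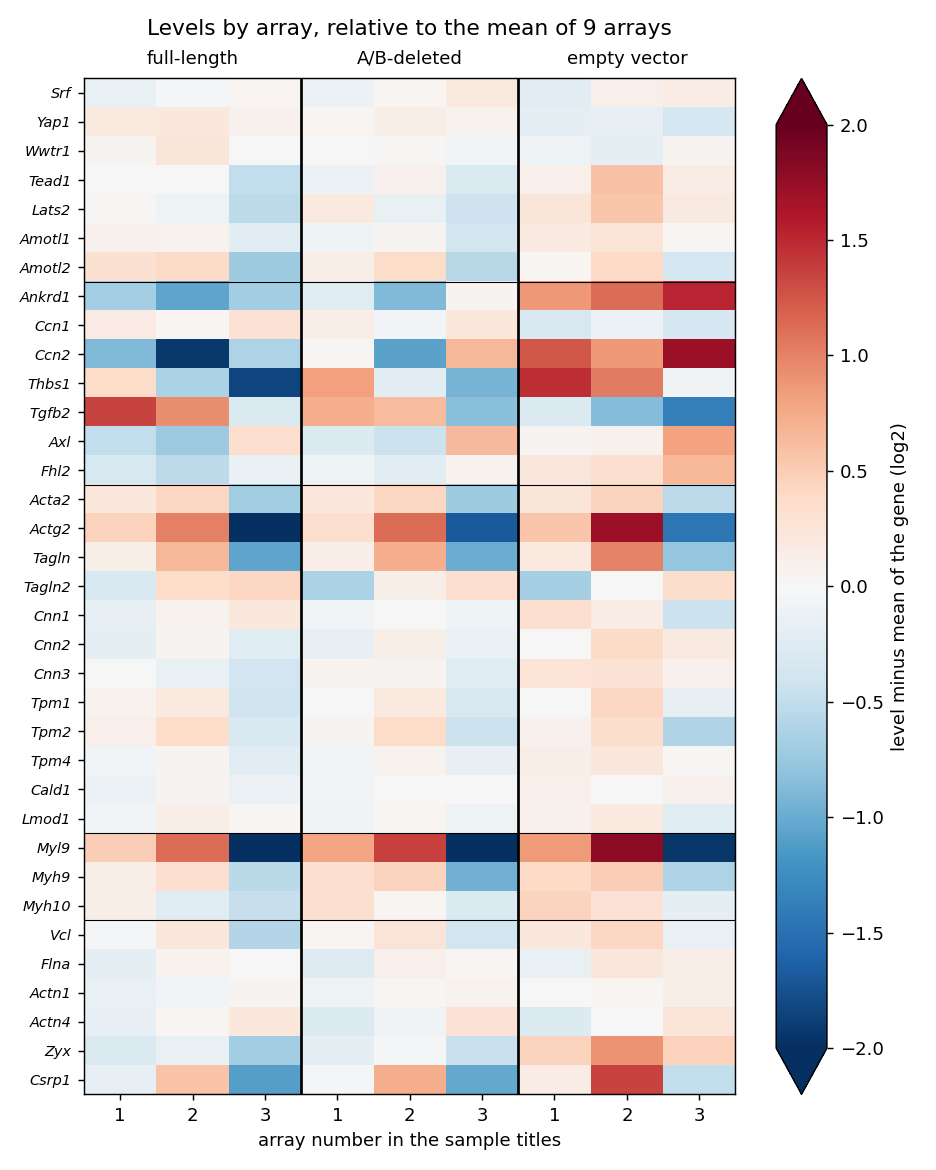
Levels of the 35 genes on the 9 arrays as colour, each minus the mean of that gene over all arrays (log2, shades saturate at 2 units). Columns are arrays by group and number. Myl9, Actg2, Tagln and Csrp1 are low in the column numbered 3 of every group, while Ankrd1 and Ccn2 are high throughout the empty-vector columns.

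**Figure D4:**
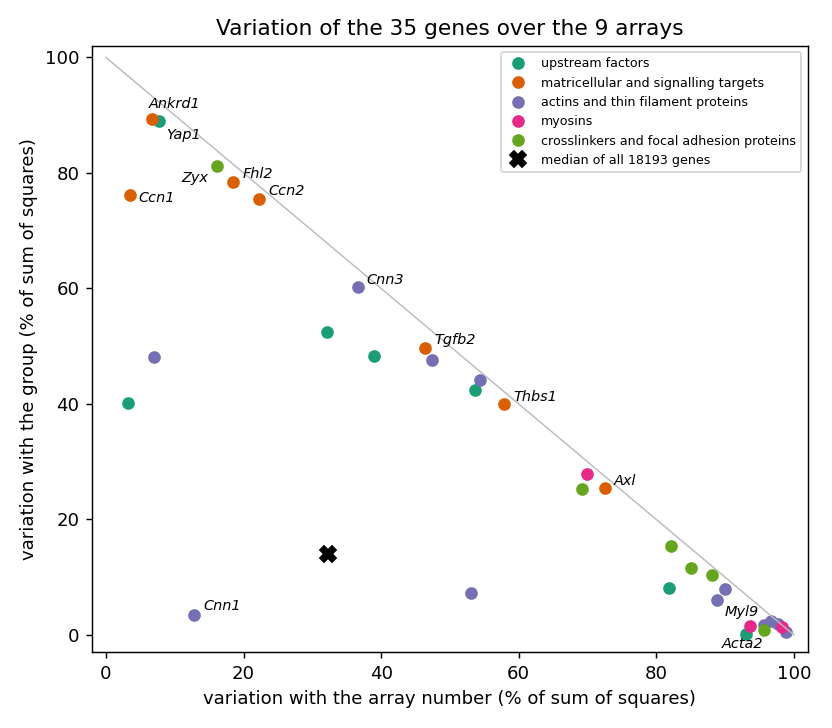
Share of the sum of squares (%) of each of the 35 genes that lies between array numbers (horizontal) and between groups (vertical), coloured by role, with the median of all genes as a cross. Points on the diagonal line have no rest. Ankrd1, at 89.4% for the group, and Yap1, at 89.0%, lie at the top, and Acta2, at 98.9% for the number, and Myl9, at 98.3%, lie at the right end.

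The other genes of both pathways were taken from 4 lists, of which 79 of 84 genes had a probe set. Ajuba is in 2 of the lists. Limma called 0 of the 79 in each of the 3 comparisons. At an unadjusted p under 0.05, 8 were lower and 2 higher in full-length against empty-vector cells (10.1% and 2.53%, against 3.16% and 3.04% of all genes). In A/B-deleted against empty-vector cells 5 were lower and 1 higher (6.33% and 1.27%, against 1.57% and 2.22%), and in A/B-deleted against full-length cells 0 were either. With the number as a block, fitted to the arrays of all 3 groups, Mrtfa fell and Frmd6 rose in A/B-deleted cells against empty vector. Mrtfa encodes the SRF cofactor that actin holds back. It averaged 8.36 ± 0.08 in A/B-deleted cells and 8.96 ± 0.18 in empty-vector cells (SD, n = 3 each), a difference of -0.60 (limma adjusted p = 0.233 without and 0.0471 with the block). In full-length cells it averaged 8.40 ± 0.13, which A/B-deleted cells differed from by -0.04 (SE 0.13, limma adjusted p = 1), so no difference between the receptors is shown. Frmd6, an upstream Hippo component, averaged 10.66 ± 0.45 in A/B-deleted cells and 9.70 ± 0.34 in empty-vector cells, a difference of 0.97 (limma adjusted p = 0.652 without and 0.0189 with the block). In full-length cells it averaged 10.36 ± 0.43, and A/B-deleted minus full-length was 0.31 (SE 0.28, limma adjusted p = 1).

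The median differences of full-length from empty vector were -0.18 over 24 other SRF and MRTF targets, -0.09 over 21 other YAP targets and -0.08 over 18 Hippo and TEAD genes. For A/B-deleted cells against empty vector these medians were -0.13, -0.13 and -0.07 in the same order. The cytoplasmic actins were nearly level. Actb averaged 14.43 ± 0.11 in full-length cells, 14.44 ± 0.14 in A/B-deleted cells and 14.48 ± 0.10 in empty-vector cells, and Actg1 averaged 14.15 ± 0.05, 14.21 ± 0.05 and 14.27 ± 0.03 in the same groups.

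Of the 35 genes 23 had more than 1 probe set. Both probe sets of Ankrd1 gave full-length differences from -1.97 to -1.94, and both of Thbs1 from -1.62 to -1.51. The 3 of Tagln2 ran from -0.20 to 0.26 and the 5 of Cald1 from -0.21 to 0.13, so those small values differ in sign between probe sets. For these genes the odd signs came from dim probe sets, -0.20 at a mean level of 5.20 for Tagln2 and 0.13 at 6.81 for Cald1. Signs also differed for Wwtr1, from -0.04 to 0.17, and for Amotl1, from -0.18 to 0.10. There the -0.04 came from a probe set with a mean level of 10.01 and the 0.10 from one at 8.48. The probe sets of Yap1 gave 0.19 and 0.40. Ccn2, Fhl2, Tagln, Actg2, Myl9 and 7 more members had 1 probe set each and no such check.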

How the data were processed

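The authors deposited log2 values of 45101 probe sets on 9 arrays. RMA, affy and R 2.5.0 are named in the submitters' processing notes. That the log has base 2 was inferred from the deposited numbers, since nearly all antilogs are multiples of 0.01. Array medians ran from 6.68 to 6.90, with 9 values at exactly 0, whereas RMA with quantile normalization gives equal distributions, so the deposited values may come from another summary. The authors' files used here hold no detection calls. Gene names came from the platform annotation, in which 34945 probe sets had 1 gene; control probe sets and those with several genes or none were left out. For each of 18193 genes the probe set with the highest mean was kept. Arrays have no read depth, and their number limits the precision.

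Values were used as deposited. Limma 3.58.1 in R 4.3.3 (lmFit, contrasts and eBayes, two-sided) was fitted once to all genes and 9 arrays with 3 group means and no block (6 residual and 3.374 prior degrees of freedom), and p-values were adjusted by Benjamini-Hochberg over 18193 genes. The fit was tested on simulated data with independent noise on each array. No effect of the array number was simulated, so that test does not cover such an effect. Tables and figures used Python 3.11.15, pandas 2.3.3, numpy 2.4.6 and matplotlib 3.10.9. Equal array numbers were taken as pairs between A/B-deleted and empty-vector arrays (correlations of deviations 0.57, 0.52 and 0.708) and between A/B-deleted and full-length arrays (0.297, 0.507 and 0.531). They were not between full-length and empty-vector arrays. The fit with the block nonetheless held all 9 arrays. Alternatives were the 2 compared groups alone, the block, median and quantile scaling, the mean of probe sets, a filter on dim genes, an eBayes trend, and fits without 1 array or without the arrays numbered 3. The members, lists and alternatives were chosen with earlier results of these data known. All 35 members are named. Values on every array are given for members called in any fit without or with the block, for the 4 largest differences of each comparison and for Srf, Yap1, Wwtr1 and Tead1, with Acta2, Myl9 and the arrays of Actg2 that stood apart added after their values were seen. Pathway genes are named in the report where called without the block, or with it between arrays taken as pairs, with Actb and Actg1 also chosen after their values were seen. The median of the fourth pathway list is not reported here.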

Additional observations from a re-analysis of the deposited data

How the results depend on the processing

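Over 17 alternative settings, 1779 differences of single members were recomputed. The 1 call of a single gene, Ankrd1 in full-length against empty-vector cells, held in all 17. No called difference changed sign, 21 uncalled ones became called, and 127 that were not called in either setting changed sign. In full-length against empty-vector cells 1 member was called lower and 0 higher. These arrays were not taken as pairs, as deviations of equal numbers correlated at -0.121, 0.631 and 0.255 and full-length array 1 correlated best with empty-vector array 2 (0.24). A replicate block called 8 members lower (317 of all genes) and 2 higher (344 of all genes). The 8 were Ankrd1, Axl, Ccn2, Cnn3, Csrp1, Fhl2, Thbs1 and Zyx, and the 2 were Tgfb2 and Yap1, with Ccn2 at a limma adjusted p of 0.00246 against 0.062. In sign, 21 members (60%) were lower in all 3 equal-numbered arrays, against 17% of all genes, and 5 (14.3%) higher, against 13%. With the block 11 of 79 pathway genes were also called lower (Amot, F3, Gadd45b, Itgb1, Lima1, Mical2, Mrtfa, Nuak2, Pdlim5, Vgll3 and Wwc2) and 2 higher (Ccdc80 and Frmd6), against 0 without it. Without genes under the median level 4 members were lower, Ankrd1, Ccn2, Fhl2 and Zyx. With an eBayes trend 3 were lower, Ankrd1, Ccn2 and Zyx, and without the arrays numbered 3 Tgfb2 was the 1 higher. Shares of all genes were not counted under these settings. Leaving out 1 array gave 1 to 2 lower members. In A/B-deleted against empty-vector cells 3 were lower with the replicate block and 1 without genes under the median level, against 0. The F test called 6 members with the replicate block (17.1%, against 2.03% of all genes) and 0 to 1 when 1 array was left out. In A/B-deleted against full-length cells 0 members were called in every setting. The median difference of the members ran from -0.31 to -0.03 for full-length receptor and from -0.30 to -0.01 for A/B-deleted receptor, both against empty vector. For A/B-deleted against full-length it ran from -0.08 to 0.15. Median subtraction and quantile scaling moved the median of all genes by at most 0.024. The causes of these shifts were not tested.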
